A study of Mus musculus with 6 samples.

Results

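Cytoplasmic dynein is the motor that carries cargo along microtubules from the axon tip towards the cell body, and dynactin is the complex that ties it to cargo. The genes described here are 10 listed by name for this retrograde motor: the heavy chain Dync1h1, the intermediate chains Dync1i1 and Dync1i2, the light intermediate chains Dync1li1 and Dync1li2, the light chains Dynll1 and Dynll2, the dynactin subunits Dctn1 and Dctn2, and the dynein regulator Ndel1. All 10 were found among the 47643 gene identifiers of the count tables, and all 10 passed the filter on low counts, which left 15573 genes to test. In sensory neurons the motor is known for hauling signalling endosomes, and injury signals bound to importins, from the axon to the nucleus. A motor holds a pair of heavy chains, with intermediate, light intermediate and light chains on its tail. It moves far only when dynactin and a cargo adaptor are bound, and LIS1 and NDEL1 regulate its activation.

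The RNA came from dorsal root ganglia taken at embryonic day 13 from CD-1 mice. The 3 shUHRF1 libraries were from cells given a lentivirus carrying a hairpin against Uhrf1, whose protein reads hemimethylated DNA, and the 3 shControl libraries were from cells given a lentivirus carrying a control hairpin. The study asked how transcription in uninjured neurons changes with this knockdown. All 6 libraries carry a lentivirus, no label names an untreated group, and the labels give neither the number of embryos nor whether libraries of a group came from separate cultures, so the p-values rest on library-to-library spread alone, and that spread may be technical.

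The libraries held 15599776 to 22382813 reads in genes, and levels are given as CPM, the read count of a gene scaled by the TMM-adjusted size of its library. Uhrf1 itself had 2, 1 and 5 reads in the shUHRF1 libraries numbered 1, 2 and 3, against 8, 6 and 5 reads in the shControl libraries, so the hairpin's target lies near the limit of detection. Without the low-count filter its log2 fold change was -1.425 ± 0.727 (SE), with an edgeR adjusted p of 0.245. These reads are too few to show whether the hairpin lowered Uhrf1. Of 15573 tested genes, 24% differed between the groups at an edgeR adjusted p below 0.05, which is what "called" means here, with 12.4% lower and 11.6% higher in shUHRF1. Neurons dominated the libraries: all 19 measured neuronal markers had at least 35.5 CPM in every shControl library, 1 of them was called higher and Tubb3 was called lower (2 higher and 3 lower with the replicate number as a block), and their summed level was 21070 to 26600 CPM in shUHRF1 and 25820 to 31490 CPM in shControl. Among markers of other cells, those of fibroblasts and macrophages summed higher in shUHRF1 from a low base. The sums of glial and endothelial markers overlapped between the groups. Of 14 fibroblast markers 9 were tested and 9 were called higher, with a sum of 82.4 to 177.9 CPM in shUHRF1 and 11.3 to 16.1 CPM in shControl. Of 16 glial markers 13 were tested, of which 9 were higher and 1 lower, with sums of 192.6 to 707.1 CPM in shUHRF1 and 536.2 to 634.7 CPM in shControl. Their median log2 fold change was 2.83, with 9 above 0 and 4 below, so the overlapping sums do not speak for most of them. The 12 macrophage markers summed to 17.4 to 45.2 CPM in shUHRF1 and 6.34 to 12.5 CPM in shControl, with 5 of 8 tested higher, and the 10 endothelial markers to 28.7 to 42.8 CPM in shUHRF1 and 36.6 to 39.4 CPM in shControl, with 1 of 4 tested higher. Of these markers of other cells, only Emcn was at 0 in all shControl libraries. A marker close to 0 in shControl is tested only where shUHRF1 is high, so these counts lean to rises. The part of these cells in the results below was not tested. In bulk RNA, fewer cells of a type and less RNA per cell cannot be told apart.

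The regulator and a subset of the chains were lower in shUHRF1, while the heavy chain was not called. Ndel1 fell to 0.331 of its shControl level, the light intermediate chain Dync1li2 to 0.702 and the light chain Dynll1 to 0.758. These 3 of 10 members were called, all lower, and 0 were called higher. Ndel1 was the 1 member both called and at least 2-fold lower, as were 4.21% of all tested genes. Across all tested genes 12.4% were called lower. The members are abundant genes, and among genes of at least 50 CPM the share called lower was 22.7%, so a count of 3 in 10 lies near what abundant genes showed in general. The median log2 fold change was -0.27 over the members and 0.02 over all tested genes. Over the 19 neuronal markers this median was -0.20, with 15 of them below 0 and 4 above. Whether the members differed from those markers was not tested. With the replicate number as a block, Dync1i1 and Dynll2 passed as well. Then 5 members were lower and 0 higher, where 15.7% of all tested genes were called lower and 15.3% higher. The block treats same-numbered libraries as pairs, which the labels do not state and which was inferred from these same data. DESeq2 and limma-voom called 4 members each, all lower, where they called 14.5% and 12.9% of all tested genes lower, and 27.5% and 24% in either direction. On the library pairs numbered 1 and 3 alone, 3 members were lower and 0 higher, where 10.7% and 8.73% of genes were. When replicate 1 or 3 of shControl, or replicate 3 of shUHRF1, was left out, Ndel1 was the 1 member called. In those fits 1085 of 16484, 946 of 16166 and 1149 of 15882 tested genes were called lower. The main fit called 1928 of 15573 lower, so calls fell for genes in general. Ndel1 kept its call with each of the 6 libraries left out in turn.

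**Figure D1:**
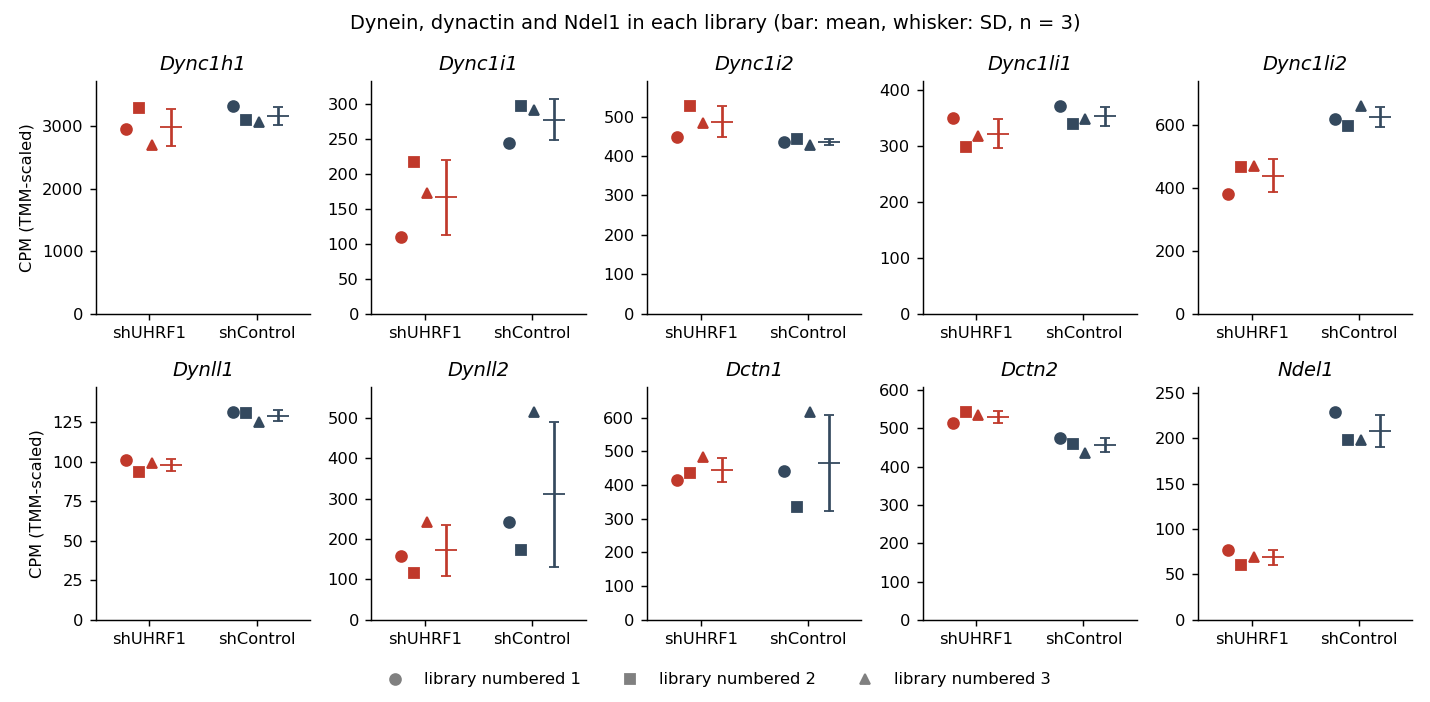
Level of each of the 10 genes in CPM (vertical axes start at 0 and differ between genes), with shUHRF1 libraries in red and shControl libraries in dark blue. Symbols give the library number and the bar and whisker give the mean and SD of 3 libraries. Ndel1 lay between 60.5 and 76.7 CPM in shUHRF1 and between 197.6 and 228.8 CPM in shControl, whereas Dync1h1 overlapped.

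Promoter windows are shown for 4 members, because UHRF1 acts on methylated CG pairs. Ndel1 and Dynll1 were called lower, and the paralogs Dync1i1 and Dync1i2 are compared as a ratio below. Windows came from RefSeq on GRCm38.p6, ran from 250 bases before to 50 bases after an annotated start, and were given for 8 of the 10 members, in 10 windows. No window was given for Dync1li2, which was called lower, or for Dynll2. Each is written from 5′ to 3′ on the gene's strand with every CG pair in capitals.
Ndel1 (chr11:68853086-68853385, minus strand): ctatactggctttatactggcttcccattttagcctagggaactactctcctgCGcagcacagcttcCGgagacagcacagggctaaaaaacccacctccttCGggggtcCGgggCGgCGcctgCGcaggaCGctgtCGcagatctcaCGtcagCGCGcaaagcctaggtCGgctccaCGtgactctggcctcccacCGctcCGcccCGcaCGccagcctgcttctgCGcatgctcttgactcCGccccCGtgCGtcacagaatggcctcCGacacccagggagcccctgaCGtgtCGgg
Dynll1 (chr5:115300941-115301240, minus strand): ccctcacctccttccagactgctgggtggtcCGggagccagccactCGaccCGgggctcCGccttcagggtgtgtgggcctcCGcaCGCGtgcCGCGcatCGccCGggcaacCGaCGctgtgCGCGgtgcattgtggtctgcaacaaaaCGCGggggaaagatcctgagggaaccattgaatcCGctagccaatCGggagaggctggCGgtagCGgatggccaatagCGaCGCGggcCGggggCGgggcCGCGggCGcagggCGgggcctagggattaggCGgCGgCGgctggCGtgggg
Dync1i1 (chr6:5725389-5725688, plus strand): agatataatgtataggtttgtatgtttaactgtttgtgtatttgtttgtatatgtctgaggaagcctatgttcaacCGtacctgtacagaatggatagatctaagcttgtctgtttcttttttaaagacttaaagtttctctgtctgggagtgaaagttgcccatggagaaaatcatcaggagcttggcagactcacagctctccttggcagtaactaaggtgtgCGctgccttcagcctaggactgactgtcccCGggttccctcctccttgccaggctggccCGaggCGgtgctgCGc
Dync1i2 (chr2:71211696-71211995, plus strand): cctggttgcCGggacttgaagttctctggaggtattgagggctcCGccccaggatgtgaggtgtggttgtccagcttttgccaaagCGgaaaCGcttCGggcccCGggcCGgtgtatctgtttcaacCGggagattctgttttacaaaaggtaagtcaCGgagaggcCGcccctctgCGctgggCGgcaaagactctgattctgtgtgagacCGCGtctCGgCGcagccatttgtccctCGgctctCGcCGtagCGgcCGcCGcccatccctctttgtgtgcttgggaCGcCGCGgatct
The Ndel1 window, whose start lies inside the gene span given below, held 25 CG pairs, a number that 18.4% of 32851 mouse promoter windows reached. The Dynll1 window held 34, which 7.73% reached, so both lay above the median window of 7. Dync1i1 had 6, which 56.4% reached. The window of Dync1i2 shown held 25, and its other annotated window, which overlaps this one, held 6. Among the members that were not called, Dync1h1 had 30 and Dync1li1 had 31, while Dctn2 had 11 and the windows of Dctn1 had 3 and 7. The Dctn1 windows also lie inside its gene span given below, so the first start of that span is not covered. Windows with more CG pairs than the median of 7 occurred both among members called lower and among members not called. Whether CG content bears on the changes was not tested. The word GGGCGG, searched on both strands, was present in 6 of the 10 member windows and in 35.7% of all windows. Methylation of these windows was not analysed here.

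Dync1h1 (ENSMUSG00000018707.13, GRCm38 chromosome 12, 110601452 to 110666945, plus strand) encodes the heavy chain, whose ATPase ring and microtubule-binding stalk make the motor walk. It had 2965, 3296 and 2705 CPM in the shUHRF1 libraries numbered 1, 2 and 3, against 3326, 3103 and 3062 CPM in the shControl libraries. The groups overlapped, with a shUHRF1 library numbered 2 above 2 of the 3 shControl libraries. The log2 fold change was -0.08 ± 0.12 (SE), with an edgeR adjusted p of 0.673, and it was 0.04 with upper-quartile factors, under which the median of all genes lay at 0.142 in place of 0.017. It was the most abundant member per length in both groups, at 190.9 ± 18.9 CPM per kilobase of annotated exon in shUHRF1 and 202.1 ± 9.08 CPM per kilobase in shControl (SD, n = 3 each). Its exons overlap 2 antisense or unclassified transcripts by 403 and 48 bases, of which the transcript with a count had 17 to 35 reads per library.

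By the smallest root mean square difference of the centred log2 CPM profile over the 6 libraries, among 7954 genes of at least 16 CPM, the profiles most like that of Dync1h1 were Scaf8 (0.0125 log2 units), Pomgnt1 (0.0300), Fbxo30 (0.0343), Lancl1 (0.0383) and Slc22a15 (0.0390). The median over those genes was 0.246. The profiles span both groups, so genes picked this way share the fold change of Dync1h1 by selection. These 5 had log2 fold changes of -0.10 to -0.05 and were not called, which follows from how they were picked. Of the other members, Dync1li1 lay nearest to the heavy chain, at 0.131, and Ndel1 farthest, at 0.775. This distance also takes in the difference between the groups.

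The intermediate chains bind dynactin and link the heavy chains to the light chains. Dync1i1, the paralog known for its expression in neurons (ENSMUSG00000029757.16, chromosome 6, 5725639 to 6028039, plus strand), had 110.4, 217.9 and 172.4 CPM in shUHRF1, against 244.1, 297.6 and 291.5 CPM in shControl. Every shUHRF1 library lay below every shControl library, and library 1 was the lowest in both groups. The log2 fold change was -0.74 ± 0.23 (SE), with an edgeR adjusted p of 0.0514, just outside the threshold. It passed with the replicate block (edgeR adjusted p = 0.00986), with DESeq2 (0.0137) and with limma-voom (0.0432). Without shUHRF1 replicate 1 the log2 fold change was -0.51 (edgeR adjusted p = 0.0472) and without shUHRF1 replicate 2 the edgeR adjusted p was 0.0152, both past the threshold, while the other 4 fits with a library left out did not pass.

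Dync1i2, the paralog expressed in most cells (ENSMUSG00000027012.15, chromosome 2, 71211706 to 71263303, plus strand), had 448.9, 527.3 and 484.1 CPM in shUHRF1, against 436.4, 444.4 and 427.3 CPM in shControl. All shUHRF1 libraries lay above all shControl libraries by a small margin. Its log2 fold change of 0.16 ± 0.11 (SE) was not called (edgeR adjusted p = 0.326). The balance of the paralogs can be read within a library, where scaling cancels. The ratio of Dync1i1 to Dync1i2 per exon length was 0.570, 0.958 and 0.825 in shUHRF1, against 1.30, 1.55 and 1.58 in shControl. Dync1i1 was thus the less abundant of the pair in each shUHRF1 library and the more abundant in each shControl library, on this length scale. The mean log2 ratio differed by -0.94 (exact two-sided permutation test, p = 0.1, the smallest that 3 against 3 libraries allow, and 0.15 adjusted over 3 ratios). Within pairs of the same number the differences were -1.19, -0.70 and -0.94.

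**Figure D2:**
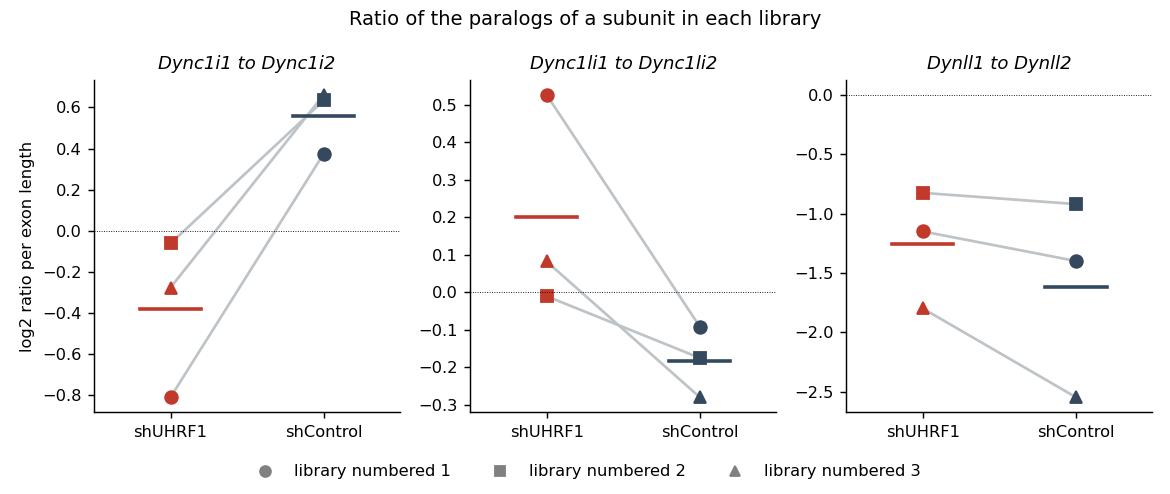
Log2 ratio of the paralogs of 3 subunits per annotated exon length, with vertical axes that differ between panels. Symbols give the library number, grey lines join libraries of the same number and bars give the group mean. The Dync1i1 to Dync1i2 ratio lay below 0 in all 3 shUHRF1 libraries and above 0 in all 3 shControl libraries, whereas the Dynll1 to Dynll2 ratio overlapped.

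The light intermediate chains are the sites at which cargo adaptors hold the motor. Dync1li2 (ENSMUSG00000035770.7, chromosome 8, 104417680 to 104443047, minus strand) had 378.5, 467.3 and 468.5 CPM in shUHRF1, against 616.8, 595.9 and 659.7 CPM in shControl. The groups were far apart and its fall was called, with a log2 fold change of -0.51 ± 0.12 (SE) and an edgeR adjusted p of 0.0221. The call was lost without shControl replicate 1 (edgeR adjusted p = 0.0654), shControl replicate 3 (0.0848) or shUHRF1 replicate 3 (0.0538), with log2 fold changes of -0.54, -0.48 and -0.57, and with upper-quartile factors (0.0532). An antisense transcript overlaps 427 bases, or 7.08%, of its exons and is not among the identifiers counted, and the strand setting of the counts is not given in the sources used here.

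Its paralog Dync1li1 (ENSMUSG00000032435.8, chromosome 9, 114688790 to 114724302, plus strand) had 350.2, 298.1 and 318.6 CPM in shUHRF1, against 372, 339.2 and 349.2 CPM in shControl. The groups overlapped, and its log2 fold change of -0.13 ± 0.11 (SE) was not called (edgeR adjusted p = 0.423). The Dync1li1 to Dync1li2 ratio per length was 1.44, 0.993 and 1.06 in shUHRF1, against 0.939, 0.886 and 0.824 in shControl. Thus the fall of Dync1li2 left the ratio higher in each shUHRF1 library than in any shControl library. The mean log2 ratio differed by 0.38 (exact two-sided permutation test, p = 0.1, and 0.15 adjusted over 3 ratios), and by 0.22 without shUHRF1 replicate 1.

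The light chains Dynll1 and Dynll2 are near-identical small dimeric proteins that dynein shares with many other partners. Dynll1 (ENSMUSG00000009013.5, chromosome 5, 115297110 to 115300999, minus strand) had 100.9, 93.6 and 98.9 CPM in shUHRF1, against 131.2, 130.7 and 125.2 CPM in shControl. The spread within groups was small, with means of 97.8 ± 3.8 CPM in shUHRF1 and 129.0 ± 3.31 CPM in shControl (SD, n = 3 each). The fall was called, with a log2 fold change of -0.40 ± 0.10 (SE) and an edgeR adjusted p of 0.0217. It did not pass in 4 of 6 fits with a library left out: the edgeR adjusted p was 0.0712, 0.0512 and 0.0655 without shControl replicates 1, 2 and 3 and 0.0652 without shUHRF1 replicate 3, at log2 fold changes of -0.43 to -0.41. On the library pairs numbered 1 and 3 it was 0.0852, and with upper-quartile factors 0.0821. Stretches of 246 to 270 bases of its longest coding transcript match 4 processed pseudogenes at 92.0% to 96.7% identity, so reads there may be left out or split.

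Dynll2 (ENSMUSG00000020483.14, chromosome 11, 87979525 to 87987533, minus strand) had the largest SE of the members, with 157.6, 116.6 and 242.3 CPM in shUHRF1, against 243.5, 174 and 515 CPM in shControl. Library 3 was highest and library 2 lowest in both groups, and each shUHRF1 library lay below the shControl library of its number. The groups overlapped, and the log2 fold change of -0.85 ± 0.41 (SE) was not called without the block (edgeR adjusted p = 0.171). With the replicate block it was -0.77 and passed (edgeR adjusted p = 0.00755). Without shControl replicate 3 it was -0.29 (edgeR adjusted p = 0.592). The Dynll1 to Dynll2 ratio per length was 0.450, 0.564 and 0.287 in shUHRF1, against 0.379, 0.528 and 0.171 in shControl, and the groups overlapped. Its mean log2 difference was 0.36 (exact two-sided permutation test, p = 0.6, also adjusted over 3 ratios), and -0.10 without shControl replicate 3.

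Dynactin is anchored to dynein by Dctn1, its largest subunit, which also reaches the microtubule. Dctn1 (ENSMUSG00000031865.16, chromosome 6, 83165920 to 83200117, plus strand) had 416, 435.6 and 483.3 CPM in shUHRF1, against 442.9, 333.7 and 616.5 CPM in shControl. The shUHRF1 libraries lay inside the shControl range, whose top was library 3, as for Dynll2. The log2 fold change was -0.06 ± 0.21 (SE), with an edgeR adjusted p of 0.866, and it was 0.19 without shControl replicate 3 (0.521) and 0.07 with upper-quartile factors (0.819).

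Dctn2 encodes dynamitin, which joins the shoulder of dynactin to its filament and whose excess breaks the complex apart. Dctn2 (ENSMUSG00000025410.9, chromosome 10, 127266368 to 127281950, plus strand) had 513.5, 542.2 and 533.4 CPM in shUHRF1, against 473.6, 457.9 and 436.5 CPM in shControl. The groups did not overlap, yet the log2 fold change of 0.22 ± 0.10 (SE) was not called (edgeR adjusted p = 0.158). With upper-quartile factors it was 0.34, was called (edgeR adjusted p = 0.0480) and was the 1 member higher. In all, 6 members had groups that did not overlap, 4 lower and 2 higher in shUHRF1, where 44% of all tested genes did so, 22.3% lower and 21.7% higher.

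Ndel1 encodes a coiled-coil protein that binds LIS1 and dynein and, in neurons, is known from work on migration and axonal transport. Ndel1 (ENSMUSG00000018736.14, chromosome 11, 68821434 to 68871858, minus strand) had 76.7, 60.5 and 69.1 CPM in shUHRF1, against 228.8, 197.6 and 197.6 CPM in shControl. The highest shUHRF1 library held less than any shControl library by a wide margin, and the SD was 8.10 CPM in shUHRF1 and 18.0 CPM in shControl. The log2 fold change was -1.60 ± 0.13 (SE), with an edgeR adjusted p of 0.000533. It lay between -1.69 and -1.54 with each library left out in turn, at edgeR adjusted p from 0.000578 to 0.00601, and at -1.47 with upper-quartile factors. Of all tested genes, 210 (1.35%) were called with a fall at least as large. No exon of another annotated gene overlaps its exons. Nde1 and LIS1 were not called. Its paralog Nde1 had 2.51 CPM in shUHRF1 and 2.48 CPM in shControl (log2 fold change 0.01, edgeR adjusted p = 0.987). Pafah1b1, which encodes LIS1, had 941 CPM in shUHRF1 and 986 CPM in shControl (log2 fold change -0.07, edgeR adjusted p = 0.715). Whether Ndel1 differed from these genes was not tested.

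**Figure D3:**
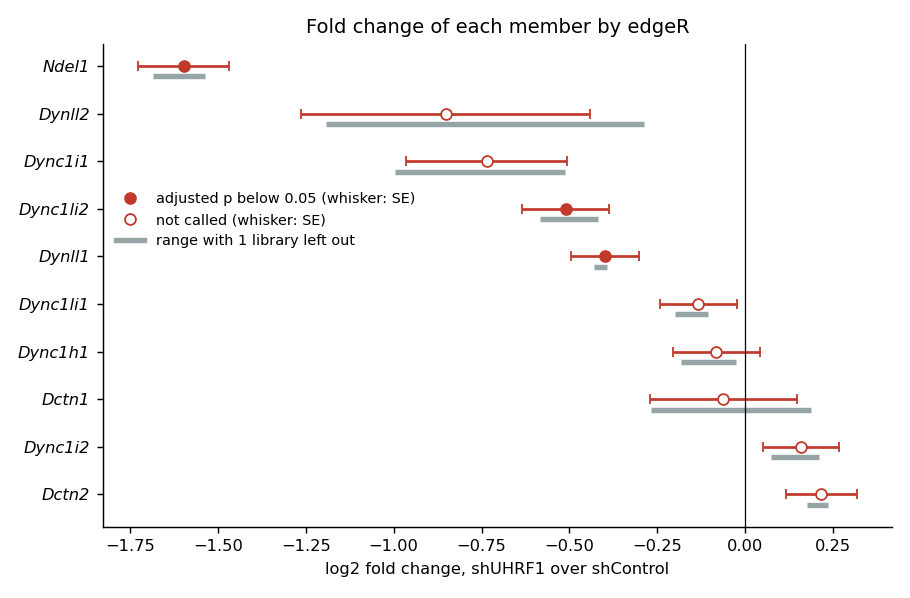
Log2 fold change of each member, shUHRF1 over shControl, by edgeR, with the SE as whiskers. Filled points passed an adjusted p below 0.05 and grey bars span the values with 1 library left out. Ndel1 at -1.60 was the largest change, and the bar of Dctn1 crosses 0.

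Per kilobase of exon, the order of the members below Dync1h1 differed between the groups. In shUHRF1 the heavy chain was followed by Dctn2 at 110.5 ± 3.07 CPM per kilobase (SD, n = 3), which stood apart from its neighbours. Then came Dync1li1 at 83.3, Dync1li2 at 72.7, Dctn1 at 68.4, Dynll2 at 62.9, Dync1i2 at 58.8 and Dync1i1 at 46.7 CPM per kilobase, each overlapping the next in range. Dynll1 at 25.1 and Ndel1 at 21.1 CPM per kilobase closed the order. In shControl Dynll2 at 113.6 ± 65.9 CPM per kilobase overlapped Dync1li2 at 103.6, Dctn2 at 95.1 overlapped Dync1li1 at 91.3, and Dync1i1 at 77.8 overlapped Dctn1 at 71.3. Ndel1 there had 63.9 CPM per kilobase and overlapped Dctn1, above Dync1i2 at 52.7 and Dynll1 at 33.2 CPM per kilobase. The order rests on the length used: with the longest coding transcript in place of all annotated exons, Dctn2 led both groups, at 296.9 CPM per kilobase in shUHRF1 and 255.6 in shControl, ahead of Dync1h1 at 208.4 in shUHRF1 and 220.6 in shControl. On that length Dync1i2 was more abundant than Dync1i1 in both groups, so the crossing of the paralogs at equal level holds for exon length only.

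**Figure D4:**
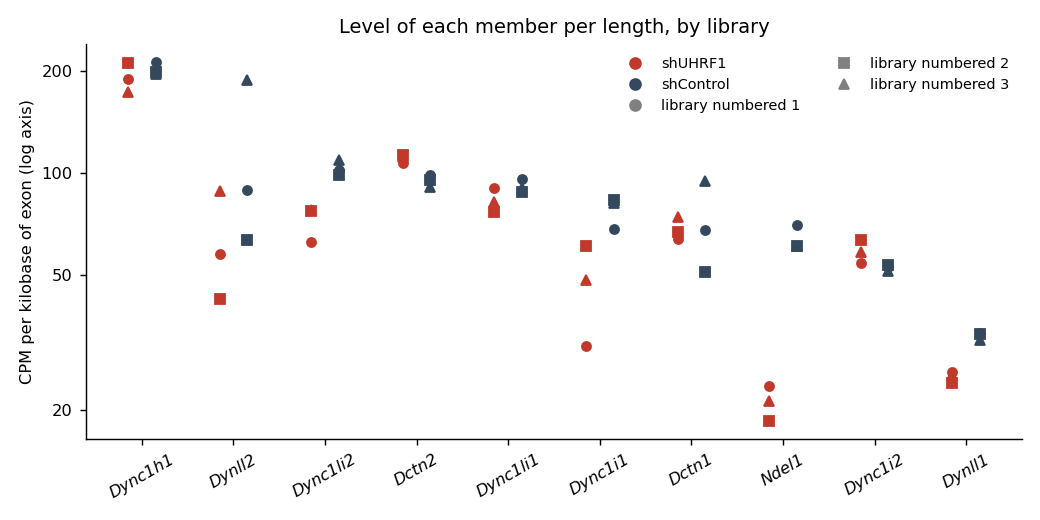
Level of each member in CPM per kilobase of annotated exon on a log axis, by library, ordered by the shControl mean. Red points are shUHRF1 and dark blue points are shControl, and Ndel1 sat between 18.6 and 23.6 in shUHRF1 and between 60.7 and 70.3 in shControl.

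Other subunits of the same complexes were measured as a list of 17 genes, of which 16 were tested. Of these 3 were called lower and 0 higher, beside 12.4% and 11.6% of all tested genes, and the median log2 fold change was -0.04. Actr1a, which encodes the actin-related protein that forms the dynactin filament, had 162.8, 198.8 and 176.8 CPM in shUHRF1, against 633.3, 596.2 and 572.6 CPM in shControl. The groups were far apart, at a log2 fold change of -1.74 ± 0.12 (SE) and an edgeR adjusted p of 0.000336, and the call held with each library left out. Its paralog Actr1b had 626.3 CPM in shUHRF1 and 799.7 CPM in shControl and was not called (log2 fold change -0.35, edgeR adjusted p = 0.113). The roadblock light chain gene Dynlrb1 fell to 95.9 ± 0.816 CPM in shUHRF1, against 146.2 ± 12.8 CPM in shControl (SD, n = 3 each; log2 fold change -0.61, edgeR adjusted p = 0.00672).

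Capza1, which encodes a subunit of the protein that caps the dynactin filament, had 6.16 CPM in shUHRF1 and 12.2 CPM in shControl (log2 fold change -0.99, edgeR adjusted p = 0.0122). Its value is uncertain, since 2859 bases of its transcript match an annotated pseudogene at 99.5% identity, and its call was lost without shControl replicate 3 (edgeR adjusted p = 0.0546) or shUHRF1 replicate 3 (0.0511). The dynactin subunits Dctn3, Dctn4, Dctn5 and Dctn6, and Actr10, had log2 fold changes of 0.04, -0.07, -0.25, 0.07 and 0.01, and none of them was called. The copies of the Dynlt1 light chain match each other closely, Dynlt1b and Dynlt1c at 99.2% over 771 bases, so their counts are uncertain. Dynlt1f was higher with the replicate block (edgeR adjusted p = 0.00985) and not without it (0.0696). Without shUHRF1 replicate 2, 6 genes of this list were called in either direction, where 3888 of 16078 tested genes were.

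Regulators and cargo adaptors of dynein were 26 genes, of which 25 were tested. Of these 6 were lower and 2 higher in shUHRF1, beside 12.4% and 11.6% of all tested genes, and the median log2 fold change was -0.17. Among genes of at least 50 CPM the share called lower was 22.7%, though not every gene of this list reached that level. Trak2, which links mitochondria to motors, had 175.2 ± 10.1 CPM in shUHRF1 and 307.5 ± 25.2 CPM in shControl (SD, n = 3 each; log2 fold change -0.81, edgeR adjusted p = 0.00267). Mapk8ip1, a scaffold of the JNK pathway that binds motors, had 445.2 CPM in shUHRF1 and 838.0 CPM in shControl (log2 fold change -0.91, edgeR adjusted p = 0.0101). Both calls held with each library left out. Rab11fip3, an adaptor of recycling endosomes, and Bicdl1, an activating adaptor of the Bicaudal family, had log2 fold changes of -0.89 and -0.48 (edgeR adjusted p = 0.0221 and 0.0253), called in 2 and 3 of 6 fits with a library left out.

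Hook1 and Hook3, adaptors that tie dynein to cargo such as endosomes, were the 2 called higher. Hook1 had 54.4 CPM in shUHRF1 and 34.5 CPM in shControl (log2 fold change 0.66, edgeR adjusted p = 0.0175), a call lost without replicate 1 (0.0755) or 3 (0.0753) of shControl or replicate 3 of shUHRF1 (0.0525). Hook3 had 121.0 CPM in shUHRF1 and 95.03 CPM in shControl (log2 fold change 0.35, edgeR adjusted p = 0.0496), a call that held in 1 of 6 fits with a library left out and whose log2 fold change was 0.06 after a GC and length offset (0.721). Hook2 had a log2 fold change of 0.77 and was called with the replicate block (edgeR adjusted p = 0.0219) but not without it (0.160). The count of 8 called genes was 3 when shControl replicate 1 was left out, and 2 when replicate 3 of either group was. Calls over all tested genes fell as well, from 3735 of 15573 to 2018 of 16484 without shControl replicate 1. They were 1768 of 16166 without shControl replicate 3 and 2171 of 15882 without shUHRF1 replicate 3.

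**Figure D5:**
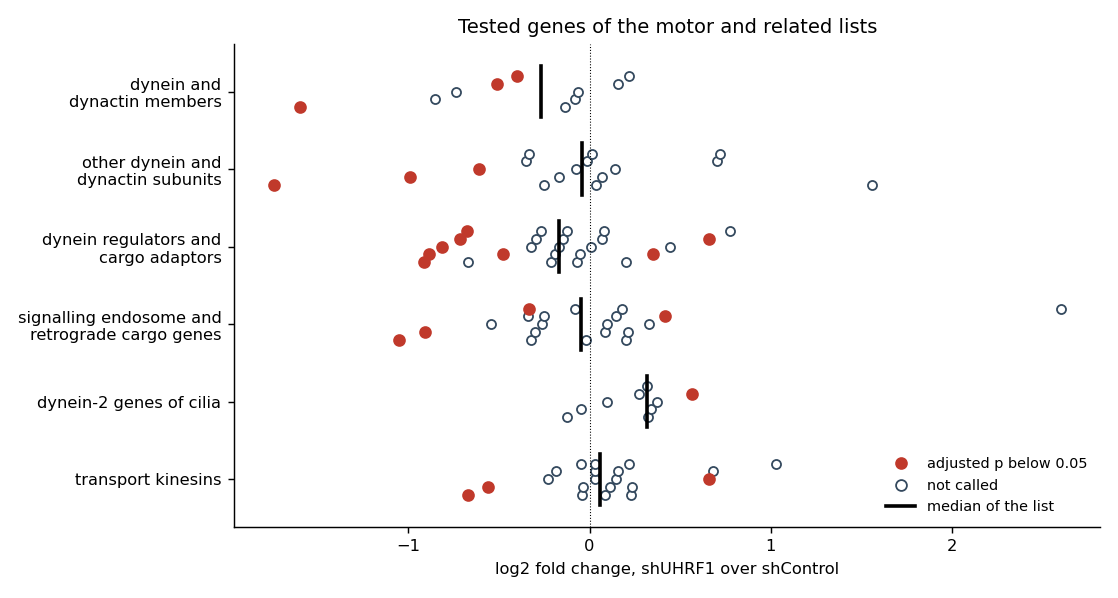
Log2 fold change, shUHRF1 over shControl, of every tested gene in 6 lists. Filled red points passed an edgeR adjusted p below 0.05 and open points did not. Black bars mark list medians, from -0.27 for the 10 members to 0.32 for the dynein-2 list, which also holds Ift genes.

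Cargo of the retrograde pathway was represented by 20 genes of signalling endosomes and nuclear import, all tested, of which 3 were lower and 1 higher, beside 12.4% and 11.6% of all tested genes. With the replicate block 5 were lower and 2 higher, beside 15.7% and 15.3%, so both counts lie near the general share. Kpnb1, the importin beta that binds dynein cargo in injured axons, had 209.8, 217.7 and 209.7 CPM in shUHRF1, against 405.7, 399.6 and 388.5 CPM in shControl. The groups were far apart and tight, and the log2 fold change was -0.91 ± 0.10 (SE; edgeR adjusted p = 0.00120). Of the importin alpha genes listed, Kpna1 was called higher and Kpna4 lower, and the others were not called. Kpna1 had 186.8 CPM in shUHRF1 and 139.9 CPM in shControl (log2 fold change 0.42, edgeR adjusted p = 0.0269). Kpna4 had 94.8 CPM in shUHRF1 and 119.5 CPM in shControl (-0.33, 0.0433). Each was called in 1 of 6 fits with a library left out. Kpna1 also lost its call after the GC and length offset (0.107), and Kpna4 with upper-quartile factors (0.174). Coro1a, which protects signalling endosomes from lysosomes in sympathetic neurons, had 80.9 CPM in shUHRF1 and 167.5 CPM in shControl (log2 fold change -1.05, edgeR adjusted p = 0.00573). The list had 2 called genes when shControl replicate 1, shControl replicate 3 or shUHRF1 replicate 3 was left out. In those fits calls over all genes also fell, from 3735 to 2018, 1768 and 2171.

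Kinesins, which move cargo the other way, gave 1 higher and 2 lower of 20 tested, beside 11.6% and 12.4% of all tested genes, with a median log2 fold change of 0.06. The axonal kinesin genes Kif1a, Kif5a and Kif5c had log2 fold changes of 0.09, 0.03 and 0.03 and, like Dync1h1, were not called. Kif3c fell to 351.5 CPM in shUHRF1, against 560.3 CPM in shControl (log2 fold change -0.67, edgeR adjusted p = 0.0115), but 35.3% of its exon bases overlap an antisense transcript. Kif16b fell to 38.0 CPM in shUHRF1, against 55.9 CPM in shControl (log2 fold change -0.56, edgeR adjusted p = 0.0135), a call lost without shControl replicate 1 (0.0570) or shUHRF1 replicate 3 (0.0575). The light chain gene Klc4 rose to 38.5 CPM in shUHRF1, against 24.4 CPM in shControl (log2 fold change 0.66, edgeR adjusted p = 0.00737). The list for the dynein of cilia (dynein-2), a separate motor, also held Ift20, Ift88, Ift140 and Ift172, which are not subunits of that motor. Of its 9 genes 1 was called, beside 24% of all tested genes. The heavy chain Dync2h1 had 57.6 CPM in shUHRF1 and 39.1 CPM in shControl (log2 fold change 0.56, edgeR adjusted p = 0.0239). That call was lost after the GC and length offset (0.0784) and when shControl replicate 1 (0.0909) or 3 (0.0992) was left out.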

How the data were processed

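Total RNA from embryonic dorsal root ganglia was sequenced in 3 shUHRF1 and 3 shControl libraries, after ribosomal RNA depletion and SMARTer cDNA synthesis per the labels' protocols. The authors deposited raw read counts per gene, 1 table per library. FastQC, STAR, HTSeq, DESeq2 and mm10 are listed in the submitters' processing notes. For these tools no version, strand setting or gene annotation was given in the sources used here. Summary lines naming no gene were removed before library sizes were taken. Of all entries, those lines put 8.43% to 17.2% outside genes, 2.12% to 2.27% in ambiguous reads and 30.5% to 37.3% in multiply aligned reads.

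GENCODE M21 on GRCm38, which is mm10, gave symbols, positions and exon lengths for 47224 of 47643 identifiers. Counts were tested with edgeR 4.0.16 in R 4.3.3 (filterByExpr, TMM factors, two-sided quasi-likelihood F test, Benjamini-Hochberg over 15573 tested genes, called below 0.05). SE was derived from the F statistic. The fit was tested on simulated data. Paralog ratios were compared by exact permutation with SciPy 1.17.1. Alternatives were DESeq2 1.42.0, limma-voom (limma 3.58.1), RLE and upper-quartile factors, 2 other low-count filters, a replicate block, a GC and length offset with and without the block, mitochondrial and small RNA genes left out, thresholds of 0.01 and 0.1, and each library left out. After seeing the data, a fit on library pairs 1 and 3 was added, as both libraries numbered 2 had the most reads outside genes.

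Same-numbered libraries deviated together from their group means, with correlations of 0.32, 0.40 and 0.40, so the numbers were taken as pairs. Other pairings lay at 0 or below. Centring on the group means pushes them there once same-numbered pairs are positive, so they are not separate evidence. The labels neither state nor explain this pairing, which was read from the same data that were tested. Replicates of a group differed by more than counting noise. The members and lists were chosen with earlier results of these data known. Named genes were the members, Uhrf1, up to 4 called genes per direction and list by smallest p, and 5 profiles like Dync1h1. Actr1b, Pafah1b1, Nde1, Hook2, Dynlt1f, Dctn3, Dctn4, Dctn5, Dctn6, Actr10, Kif1a, Kif5a, Kif5c, Tubb3 and Emcn were added after their values were seen.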

Additional observations from a re-analysis of the deposited data

How the results depend on the processing

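Of 170 refits of the 10 members, 144 kept direction and side of the threshold, 10 lost a call, 13 gained one and 3 reversed. Dync1h1 was 0.04 and Dctn1 0.07 with upper-quartile factors, and Dctn1 ran from -0.27 to 0.19 with a library left out, the top without shControl replicate 3. With those factors Scaf8, Pomgnt1, Fbxo30, Lancl1 and Slc22a15 also turned, to 0.04, 0.07, 0.08, 0.07 and 0.02, as the median of all genes moved to 0.142 (0.11 without a low-count filter). Those genes were picked for profiles like that of Dync1h1, so turning with it follows from the selection. The count of 3 called members, all lower, was 5 with no low-count filter, with the replicate block and with the block plus a GC and length offset, and 1 at an adjusted p below 0.01. With upper-quartile factors 1 was lower and 1 higher. It was 1 to 4 with a library left out, with 0 higher.

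Over all genes 3735 were called, 1807 higher and 1928 lower, or 1434, 668 and 766 below 0.01, and 3149 lower with the block plus offset. With a library left out the counts ran from 1768 to 3888, from 822 to 1814 higher and from 946 to 2074 lower, with 2018, 1768 and 2171 without shControl replicate 1, shControl replicate 3 and shUHRF1 replicate 3. With the replicate block 4820 of 15573 tested genes were called, and with the block plus offset 5251. The other subunits had 7 calls with the block plus offset and 2 to 6 with a library left out. Regulators and adaptors had 1 call below 0.01 and 2 to 8. Signalling endosome genes had 7 with the replicate block, 8 with the block plus offset, 2 below 0.01 and 2 to 5. The dynein-2 list had 3 with upper-quartile factors, 0 with the offset, 0 below 0.01 and 0 to 1. Axonemal heavy chains had 2 below 0.01, 3 on library pairs 1 and 3 and 2 to 5. Kinesins had 1 below 0.01 and 2 to 4. Neuronal markers had 5 calls with the replicate block, against 2 without it. The block moved no other list's count past 1.5 times.

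The Dync1i1 to Dync1i2, Dync1li1 to Dync1li2 and Dynll1 to Dynll2 log2 differences ran from -1.10 to -0.73, from 0.22 to 0.49 and from -0.10 to 0.72 with a library left out. With the replicate block they were -0.94, 0.38 and 0.36 at an exact p of 0.25, the smallest that 3 pairs allow. The causes of these shifts were not tested, and leaving out a library also leaves fewer samples. Uhrf1 had 1 to 8 reads per library and the members at least 1027, and depth was not tested as a limit.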

Other observations

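The axonemal dynein heavy chains, motors of beating cilia that are unrelated to axonal transport, were low in all libraries. Of 15 listed genes 10 passed the filter, and 5 of those were called higher and 0 lower, beside 11.6% and 12.4% of all tested genes. The low-count filter keeps a gene that is close to 0 in shControl only if its shUHRF1 level is high enough, so these counts do not stand for the 15. The count of 5 was 3, 3 and 2 without shControl replicates 1, 2 and 3 and 3 without shUHRF1 replicate 1. Calls over all tested genes fell too, from 3735 to 2018, 2870 and 1768 without those shControl replicates and 3190 without shUHRF1 replicate 1. Dnah6 had 24.65, 5.83 and 6.39 CPM in shUHRF1, against 0.465, 0.388 and 0.478 CPM in shControl, a log2 fold change of 4.77 ± 0.68 (SE; edgeR adjusted p = 0.00322) that was 3.75 without shUHRF1 replicate 1. Dnah1 had 10.7 ± 0.468 CPM in shUHRF1 and 4.32 ± 1.06 CPM in shControl (SD, n = 3 each; log2 fold change 1.30, edgeR adjusted p = 0.00577). Dnah10 and Dnah14 had log2 fold changes of 1.85 and 1.64 (edgeR adjusted p = 0.0118 and 0.0183), and neither call was stable. Dnah10 lost it without shControl replicate 1 (0.0515) or 3 (0.0547). Dnah14 lost it without shControl replicates 1, 2 and 3 (0.0771, 0.0593 and 0.0856), without shUHRF1 replicate 1 (0.0566), on library pairs 1 and 3 (0.0734) and with DESeq2 (0.0577). The summed level of the 15 genes was 40.1 to 68.8 CPM in shUHRF1 and 20.7 to 23.3 CPM in shControl, where the 10 members of the cytoplasmic motor summed to 5518 to 6055 CPM in shUHRF1 and 6074 to 6681 CPM in shControl. Markers of fibroblasts and macrophages were higher in the same libraries, at 82.4 to 177.9 CPM and 17.4 to 45.2 CPM in shUHRF1, against 11.3 to 16.1 CPM and 6.34 to 12.5 CPM in shControl. Of 13 tested glial markers 9 were called higher and 1 lower, though their sums overlapped between the groups. The part of these cells in the axonemal values was not tested.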
